A study of Mus musculus with 6 samples.

Results

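The genes described here are 10 transcripts of mouse CD8+ T cells, 7 killer lectin-like receptors (Klrg1, Klrb1c, Klrk1, Klrc1, Klrc2, Klrd1 and Klre1) and 3 signalling adapters (Tyrobp, Fcer1g and Hcst). They were taken by their symbols from a table of 11922 genes, all 10 had a row, and all 10 were among the 11759 genes that passed the filter on low counts. CD8+ T cells were isolated with beads against CD8α from the spleens of 3 C57BL/6J mice older than 6 weeks and activated with beads against CD3 and CD28. The cells of each mouse were cultured for 7 days in recombinant human interleukin-2 at 100 units per ml, either with water (vehicle) or with 0.25 mM aminoxyacetic acid (AOA), an inhibitor of enzymes that use the active form of vitamin B6 as a cofactor. Bulk RNA was sequenced, which gave 3 vehicle and 3 AOA libraries, numbered by mouse.

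Killer lectin-like receptors are C-type lectin proteins first described on natural killer (NK) cells, and activated and memory CD8+ T cells also carry many of them. Some bear an inhibitory motif in their own tail, while the activating ones have no signalling motif and borrow an adapter in the membrane. Tyrobp (DAP12) and Fcer1g (the common Fc receptor gamma chain) carry an immunoreceptor tyrosine-based activation motif that recruits the kinases Syk and Zap70, whereas Hcst (DAP10) carries a motif that recruits phosphoinositide 3-kinase. Because a receptor without its adapter is poorly held at the cell surface, receptors and adapters are described together.

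The 7 receptor genes lie on chromosome 6 of GRCm38, the assembly that the submitters' processing notes name as mm10, with coordinates taken from RefSeq. Klre1, Klrd1, Klrk1, Klrc2 and Klrc1 lie within 123488 bases of each other, from 129559365 to 129682852. Klrb1c lies at 128778485 to 128788641 and Klrg1 at 122270596 to 122282833. Fcer1g lies on chromosome 1 at 171229572 to 171234349. Tyrobp (chromosome 7, 30413782 to 30417582, plus strand) and Hcst (chromosome 7, 30417712 to 30419854, minus strand) are transcribed toward each other, and 129 bases separate their ends.

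RefSeq promoter windows of GRCm38.p6 were found for 7 of the 10 genes, and those of Klrk1 and Hcst are shown because this receptor and its adapter act as 1 complex, and with AOA the receptor transcript was lower while the adapter transcript was not called. Each stretch is written from 5′ to 3′ on the minus strand and ends before the annotated transcripts of its gene. It covers 211 bases at chr6:129623904-129624114 for Klrk1 and 250 bases at chr7:30419855-30420104 for Hcst, and capitals mark a match to the Runx sequence.
Klrk1: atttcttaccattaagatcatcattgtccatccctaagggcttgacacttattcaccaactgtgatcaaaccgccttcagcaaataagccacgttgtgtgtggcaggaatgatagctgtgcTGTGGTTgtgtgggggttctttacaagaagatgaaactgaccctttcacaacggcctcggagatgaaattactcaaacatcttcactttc
Hcst: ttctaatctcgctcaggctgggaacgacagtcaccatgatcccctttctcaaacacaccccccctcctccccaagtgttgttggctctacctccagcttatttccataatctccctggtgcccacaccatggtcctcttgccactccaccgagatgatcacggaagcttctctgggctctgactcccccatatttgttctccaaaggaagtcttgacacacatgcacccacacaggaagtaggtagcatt
Matches were sought on both strands in the 250 bases before each start for Runx factors (AACCACA or TGTGGTT), T-box factors (TCACACC or GGTGTGA) and Zeb factors (CAGGTG or CACCTG). The Runx sequence was found once for Klrk1 and once in 1 of the 2 windows of Klre1, and in 4.40% of all 32851 windows. No window of Fcer1g, Klrb1c, Klrc1, Klrc2 or Hcst held it. The T-box and Zeb sequences, present in 3.33% and 17.2% of all windows, were in none of the 9 windows of these genes. A match describes letters in the window and not a site in use.

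Total counts ran from 12881962 to 18934869 with vehicle and from 18696114 to 21997078 with AOA. Levels are given as CPM, the read count scaled to a common TMM-adjusted library size, and log2 fold changes are AOA relative to vehicle. They were tested with edgeR's quasi-likelihood test, with Benjamini-Hochberg adjustment over all 11759 genes, and called below an adjusted p of 0.05. Vehicle replicate 2 lay apart from the other vehicle libraries on the second principal component, with a score of -44.2 against 21.9 and 19.4, so each library is given and each member was also fitted without it. The CD3 genes Cd3d, Cd3e and Cd3g of the T cell receptor complex and both CD8 genes were abundant in every library, and the 7 CD8 T cell markers summed to between 3367 and 5063 CPM. Cd8a and Cd8b1 were themselves higher with AOA, with log2 fold changes of 1.03 and 0.64 (adjusted p = 0.00128 and 0.0148 by edgeR). Cd5 was lower (-0.88, adjusted p = 0.0132 by edgeR), and Cd3d, Cd3e, Cd3g and Cd247 were not called, at -0.13, -0.27, -0.31 and -0.16.

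With AOA, 9 of the 10 genes were lower and 0 were higher, while 1, Hcst, was not called. Over all genes tested, 26.8% were called lower and 26.2% higher. The median log2 fold change of the 10 genes was -2.65, beside -0.02 over all genes tested, and without vehicle replicate 2 these medians were -1.86 and 0.02. For 8 of the 10 genes the 3 AOA libraries all lay below the 3 vehicle libraries, which held for 31.1% of all genes tested, and for 0 did they all lie above, which held for 31.0%. The fall ran from 2.69-fold for Klre1 to 43.2-fold for Klrg1, whose log2 fold change of -5.43 was -3.66 without vehicle replicate 2. Within each of the 3 mice, every one of the 9 called genes was lower in the AOA culture than in the vehicle culture. For the 8 genes without overlap this follows from the separation of the groups, so it adds information only for Fcer1g. In bulk libraries, fewer cells of a type and less RNA per cell cannot be told apart.

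**Figure D1:**
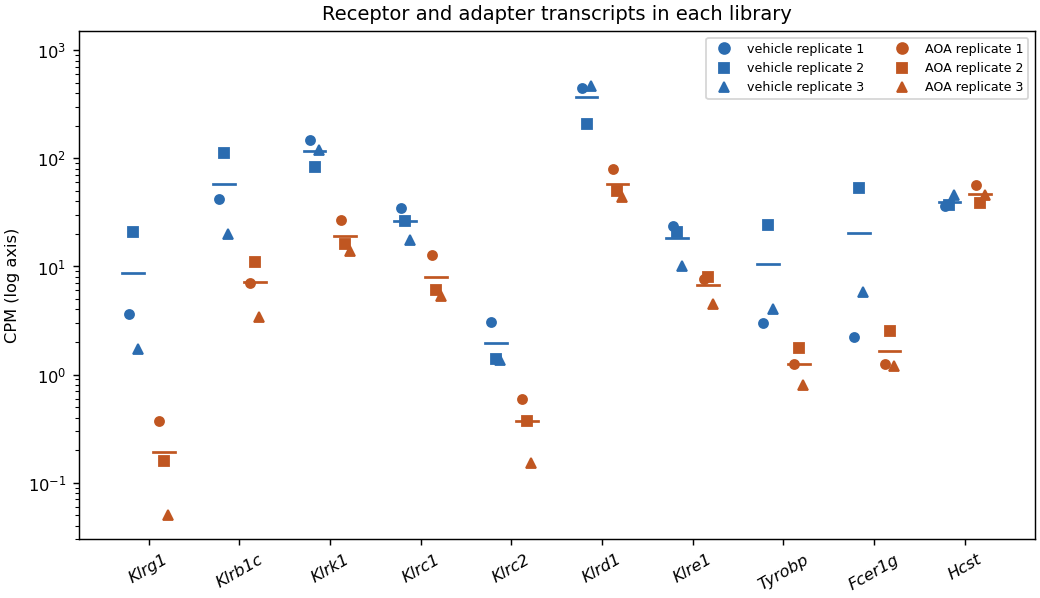
CPM of the 10 genes on a log axis in each of the 6 libraries, with vehicle in blue, AOA in orange, a marker shape for each mouse and a bar at each group mean. AOA lies below vehicle for every gene except Hcst, with 1 overlap at Fcer1g, and vehicle replicate 2 (blue square) stands highest for Klrg1, Klrb1c, Tyrobp and Fcer1g.

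Among inhibitory receptors, Klrg1, a receptor of late effector T cells that binds cadherins, was at 3.65, 21.0 and 1.74 CPM with vehicle, in the order of mice 1 to 3 used throughout, and at 0.368, 0.159 and 0.0504 CPM with AOA. These AOA values rest on 8, 3 and 1 counts, against 46, 331 and 32 with vehicle. The groups did not overlap, and vehicle replicate 2 was 7.79 times the mean of the other vehicle libraries. AOA changed it by -5.43 ± 1.06 on the log2 scale (SE, here and for the genes that follow), with adjusted p = 0.00241 by edgeR, and without vehicle replicate 2 it was -3.66 (adjusted p = 7.07e-04 by edgeR). Klrc1, which encodes NKG2A, the inhibitory partner of CD94, was at 34.7, 26.4 and 17.6 CPM with vehicle and at 12.6, 6.08 and 5.35 CPM with AOA. Every vehicle library was above every AOA library, and replicate 2 did not stand out. Its change was -1.70 ± 0.36 (adjusted p = 0.00353 by edgeR).

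Klrd1 encodes CD94, which joins NKG2A or NKG2C to form receptors for the class I molecule Qa-1. It was the most abundant of the 7 receptor genes per length in every library, at 445, 209 and 465 CPM with vehicle and 79.8, 49.9 and 44.0 CPM with AOA. The groups lay apart, and here vehicle replicate 2 was the lowest of its group, at 0.459 times the mean of the other vehicle libraries. Klrd1 changed by -2.69 ± 0.34 on the log2 scale (edgeR, adjusted p = 2.41e-04), and it was -2.94 without that library. Klrc2, which encodes NKG2C, the activating partner of CD94, was at 3.10, 1.39 and 1.36 CPM with vehicle and at 0.598, 0.370 and 0.151 CPM with AOA. It had 39, 22 and 25 counts with vehicle and 13, 7 and 3 with AOA, the lowest summed count of the 10 genes, and the groups lay apart. Klrc2 changed by -2.33 ± 0.55 on the log2 scale (edgeR, adjusted p = 0.00609).

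Klrc1 and Klrc2 are near copies, and 24.7% of the 75-base stretches of the annotated Klrc1 transcripts also occur in Klrc2 transcripts. Only uniquely mapped reads were counted, so their separate levels are uncertain. Per length, Klrc1 was 5.66 ± 1.59 times Klrc2 with vehicle (SD, n = 3) and 9.58 ± 3.88 times with AOA (SD, n = 3), and these ratios overlapped between the groups. The deposited length of Klrc2 is 782 bases, while its annotated exons cover 5812 bases, and with that length the ratios were 42.1 ± 11.8 and 71.2 ± 28.8 (SD, n = 3 each), so the relative level of these genes depends on the length used. The ratio of Klrc1 to Klrd1 was 0.0352 ± 0.0194 with vehicle and 0.0585 ± 0.00926 with AOA (SD, n = 3 each), and these overlapped as well.

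Klre1 encodes a receptor subunit that pairs with products of the Klri genes and can act in activating or inhibitory complexes. It was at 23.5, 20.8 and 10.2 CPM with vehicle and at 7.63, 8.03 and 4.49 CPM with AOA. The groups lay apart, but vehicle replicate 3 was close to the AOA range, and the fall was the smallest of the 9. Klre1 changed by -1.43 ± 0.34 on the log2 scale (edgeR, adjusted p = 0.00623).

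Among the activating receptors, Klrk1, which encodes NKG2D, the receptor for stress-induced ligands, was at 148, 83.7 and 119 CPM with vehicle and at 26.8, 16.2 and 13.9 CPM with AOA. Each vehicle library was above each AOA library, and vehicle replicate 2 was again the lowest of its group. Klrk1 changed by -2.62 ± 0.29 on the log2 scale, with the smallest adjusted p of the 10 genes (1.22e-04 by edgeR), and the differences within mice 1, 2 and 3 were -2.46, -2.36 and -3.09. Klrb1c encodes NK1.1, an activating receptor that signals through the Fcer1g product and marks NK cells of this mouse strain. It was at 41.7, 111 and 20.1 CPM with vehicle and at 6.99, 11.0 and 3.38 CPM with AOA. The groups lay apart, and vehicle replicate 2 was 3.60 times the mean of the other vehicle libraries. Klrb1c changed by -3.02 ± 0.62 on the log2 scale (edgeR, adjusted p = 0.00310), and without that library it was -2.07. Klrb1c shares 413 exon bases with the annotated gene Gm44511 on the same strand, which makes its level less certain.

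The adapters with an activation motif were low outside vehicle replicate 2. Tyrobp was at 3.02, 24.2 and 4.07 CPM with vehicle and at 1.24, 1.74 and 0.807 CPM with AOA. The groups did not overlap, although vehicle replicate 2 was 6.83 times the mean of the other vehicle libraries. Its change was -3.04 ± 0.77 (adjusted p = 0.00878 by edgeR). Without vehicle replicate 2 it was -1.46 (adjusted p = 0.00650 by edgeR), but it missed the threshold once AOA replicate 1 was left out (-3.03, adjusted p = 0.0598 by edgeR).

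Fcer1g was at 2.22, 53.4 and 5.86 CPM with vehicle and at 1.24, 2.54 and 1.21 CPM with AOA. Vehicle replicate 1 was below AOA replicate 2, so the groups overlapped, and vehicle replicate 2 was 13.2 times the mean of the other vehicle libraries. Fcer1g changed by -3.63 ± 1.03 on the log2 scale (edgeR, adjusted p = 0.0150). It was -1.28 without vehicle replicate 2 (adjusted p = 0.0385 by edgeR). Without AOA replicate 1, 2 or 3 it was -3.45, -4.05 and -3.45, and each time the call was lost (adjusted p = 0.0923, 0.123 and 0.114 by edgeR), as it was under limma (-2.57, adjusted p = 0.109). The differences within mice 1, 2 and 3 were -0.79, -4.34 and -2.18.

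Hcst, an adapter of NKG2D, was at 36.0, 37.0 and 45.6 CPM with vehicle and at 56.2, 39.0 and 45.6 CPM with AOA. The groups overlapped, and vehicle replicate 2 did not stand apart. The log2 fold change was 0.25, with a 95% interval from -0.14 to 0.63 (adjusted p = 0.250 by edgeR), so a small rise or a slight fall cannot be told apart at this precision. This interval does not meet those of Klrk1 (-3.26 to -1.97) or of its convergent neighbour Tyrobp (-4.78 to -1.31).

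**Figure D2:**
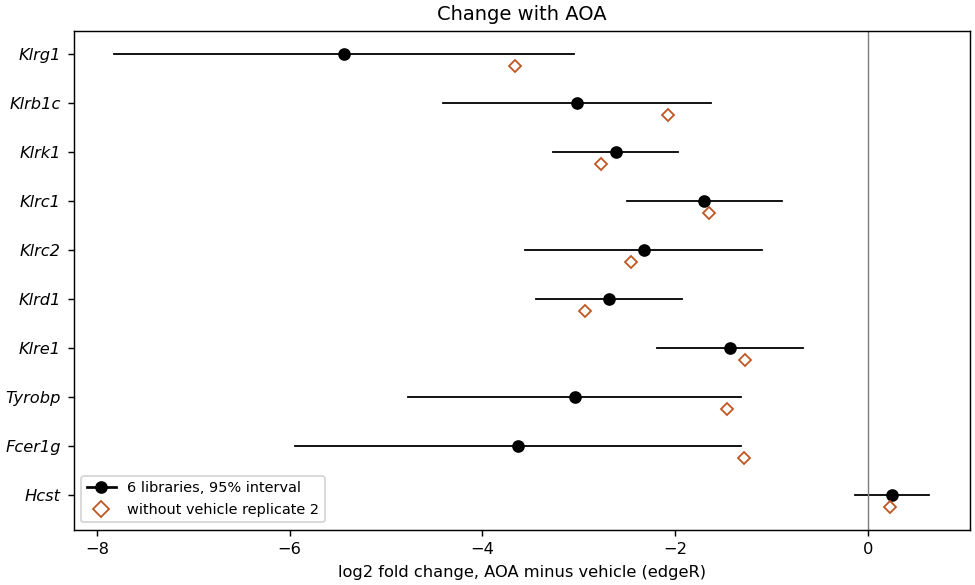
Log2 fold change (AOA minus vehicle, edgeR) of each gene, with dots and lines for the 6 libraries and their 95% intervals, and open diamonds for the fit without vehicle replicate 2. The intervals of 9 genes lie below 0 and that of Hcst spans it, and the diamonds that lie farthest from their dots toward 0 are those of Klrg1, Klrb1c, Tyrobp and Fcer1g, at -3.66, -2.07, -1.46 and -1.28.

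The members fell into different patterns among the vehicle libraries. Vehicle replicate 2 minus the mean of replicates 1 and 3, in log2 CPM, was 3.00 for Klrg1, 1.94 for Klrb1c, 2.75 for Tyrobp and 3.84 for Fcer1g. Only 0.153%, 0.867%, 0.238% and 0.051% of the tested genes had a value as high as these 4 genes, respectively. The same difference was -1.12 for Klrd1, -0.66 for Klrk1 and -0.53 for Klrc2, with 3.32% of tested genes as low as Klrd1. Klrc1, Klre1 and Hcst lay between, at 0.09, 0.42 and -0.13. A single vehicle library shows this split, so it has no replicate.

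**Figure D3:**
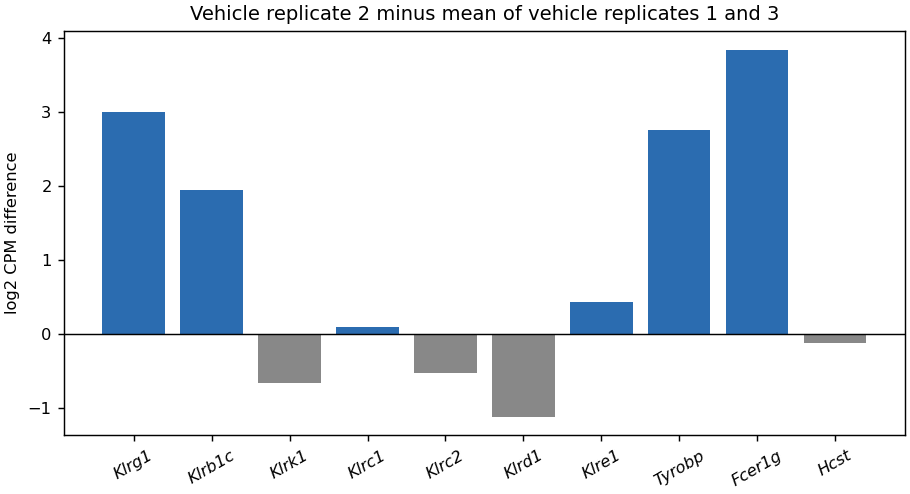
Difference in log2 CPM between vehicle replicate 2 and the mean of vehicle replicates 1 and 3, with 1 bar for each gene. The bars of Klrg1, Klrb1c, Tyrobp and Fcer1g reach from 1.94 to 3.84, while those of Klrk1, Klrc2, Klrd1 and, by only -0.13, Hcst are negative.

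Other cell types could carry several of these transcripts, and their markers were read in the same libraries. The cells had been selected with beads against CD8α, which most cells of the types below lack, but the purity of the cultures was not tested here. Of the 8 NK cell markers listed, 5 had a row, and their summed level was 110, 586 and 120 CPM with vehicle and between 18.7 and 32.5 CPM with AOA. Most of the vehicle sum was Gzmc, a granzyme that activated CD8+ T cells also make, at 87.6, 519 and 93.2 CPM with vehicle and 6.61 ± 4.69 CPM with AOA (SD, n = 3). Cd244a, a receptor of NK cells and of some CD8+ T cells, was at 9.21, 45.9 and 10.9 CPM with vehicle and 5.70, 7.72 and 4.84 CPM with AOA. Gzmc, Cd244a and the integrin Itga2 were all called lower, with log2 fold changes of -5.15, -1.86 and -0.76 (adjusted p = 0.00150, 0.0202 and 0.0357 by edgeR). Klra7, the other marker tested, was not called (-0.33, adjusted p = 0.450 by edgeR). Ncr1, the NK cell receptor NKp46, had 0, 37 and 0 counts with vehicle and 5, 11 and 3 with AOA, too few to be tested. The mast cell and basophil markers (3 of 6 with a row) summed to 15.4, 41.5 and 14.0 CPM with vehicle and to between 6.71 and 14.7 CPM with AOA. Among them the mast cell protease Cpa3 was lower with AOA in all 3 mice (log2 fold change -4.60, adjusted p = 0.00177 by edgeR), Kit was not called, and the basophil protease Mcpt8 had 0, 53 and 2 counts with vehicle and 1, 2 and 0 with AOA. Vehicle replicate 2 was the highest vehicle library for the summed NK markers and the summed mast cell and basophil markers, as it was for the myeloid, dendritic and B cell sums given next, although Itga2 was highest in vehicle replicate 3. The part of these cell types in its levels of Klrg1, Klrb1c, Tyrobp and Fcer1g was not tested.

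The myeloid markers (4 of 12 with a row) summed to between 55.5 and 67.5 CPM with vehicle and between 4.18 and 7.82 CPM with AOA. The integrin Itgam and the lysosomal protein Cd68 were both called lower, with log2 fold changes of -5.25 and -1.91 (adjusted p = 1.61e-05 and 1.10e-04 by edgeR). Itgam made up most of the vehicle sum, at 42.8, 52.9 and 40.5 CPM. Csf1r, Adgre1, Spi1 and C1qa were among the myeloid markers without a row. Of the markers with too few counts to be tested, Cd14 had 13, 16 and 5 counts with vehicle and 0, 1 and 0 with AOA, while Lyz2 had 0, 5 and 0 with vehicle and 6, 22 and 2 with AOA. Markers of CD8α-positive dendritic cells (4 of 7 with a row), which the isolation beads could also bind, summed to between 30.8 and 59.2 CPM with vehicle and between 3.59 and 4.97 CPM with AOA. Among them the integrin Itgax, the chemokine receptor Xcr1 and the transcription factor Batf3 were called lower, with log2 fold changes of -4.70, -2.17 and -2.24 (adjusted p = 2.86e-05, 5.62e-04 and 0.00690 by edgeR), and Wdfy4 was not called. Itgax made up most of the dendritic sum with vehicle, at 42.5, 43.4 and 22.8 CPM, and Clec9a, Flt3 and Zbtb46 had no row. CD4 T cell markers (4 of 4) lay between 432 and 872 CPM with vehicle and between 131 and 186 CPM with AOA, and most of that was Ctla4, which activated CD8+ T cells also express. Cd4 itself was at 66.4, 63.1 and 119 CPM with vehicle and 5.65, 11.6 and 12.2 CPM with AOA, and Cd4, Cd40lg and Ctla4 were called lower, with log2 fold changes of -3.08, -2.58 and -2.13 (adjusted p = 1.29e-04, 3.15e-04 and 3.40e-04 by edgeR). Foxp3 was not called (0.36, adjusted p = 0.127 by edgeR). B cell markers (5 of 6) were at 13.9 to 18.4 CPM with vehicle and 23.1 to 30.9 CPM with AOA. Of the 6 gamma-delta and NKT-like markers, 0 had a row. The NK, myeloid, dendritic and CD4 sums, with Cpa3, were thus lower with AOA along with the receptors, and their part in the fall was not tested.

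To set receptors beside adapters, levels were expressed as CPM per kilobase of deposited gene length. With vehicle, Klrd1 was highest at 431 ± 165 (SD, n = 3), followed by Hcst at 89.4 ± 11.9 and Klrk1 at 34.9 ± 9.62, and the libraries of these 3 genes did not overlap. Below them Fcer1g, Klrb1c, Klre1, Tyrobp, Klrc1, Klrg1 and Klrc2 followed in order of their means, from 31.2 to 2.49, and no neighbours in that order were apart. The place of Fcer1g rests on vehicle replicate 2, at 81.2, since the other vehicle libraries were at 3.38 and 8.91, below every vehicle library of Klrk1. With AOA, Hcst was at 106 ± 19.6 and Klrd1 at 66.9 ± 22.2 (SD, n = 3 each). Hcst was above Klrd1 in all 3 AOA libraries, but the ranges overlapped, and each was above all other members. Next came Klre1 at 7.36 ± 2.13, Klrk1 at 5.67 ± 2.07 and Klrc1 at 4.05 ± 2.03, whose neighbouring ranges overlapped. Tyrobp lay apart above Klrc2, and Klrg1 was the lowest, at 0.141 ± 0.118. The order below Klrd1 and Hcst depended on the length, since the deposited lengths of Klrk1 and Klre1 are 3344 and 913 bases and their annotated exons cover 7183 and 3494. With annotated exon bases, an alternative chosen after seeing the data, Klrd1 and Hcst kept the first places in both groups, Klrk1 moved from place 3 to 5 with vehicle, Klre1 moved from place 3 to 6 with AOA, and Klrc2 was the lowest in both groups.

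The balance of receptor to adapter transcripts was read in each library. The level per length of Klrk1 relative to Hcst was 0.543, 0.299 and 0.344 with vehicle and 0.0632, 0.0548 and 0.0402 with AOA. The 2 groups did not overlap, and an exact permutation test of a single value cannot give a two-sided p below 0.1 with 3 libraries against 3. Klrk1 relative to Tyrobp was 8.30, 0.585 and 4.93 with vehicle and 3.66, 1.57 and 2.91 with AOA, and these values overlapped. Tyrobp relative to Hcst was 0.0654, 0.512 and 0.0697 with vehicle and 0.0173, 0.0349 and 0.0138 with AOA, without overlap. Fcer1g relative to Tyrobp was 0.634, 1.90 and 1.24 with vehicle and 0.860, 1.25 and 1.29 with AOA, where the groups overlapped. Klrd1 relative to Klrk1 was 12.1 ± 2.79 with vehicle and 11.9 ± 0.384 with AOA (SD, n = 3 each), and the AOA values lay inside the vehicle range.

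**Figure D4:**
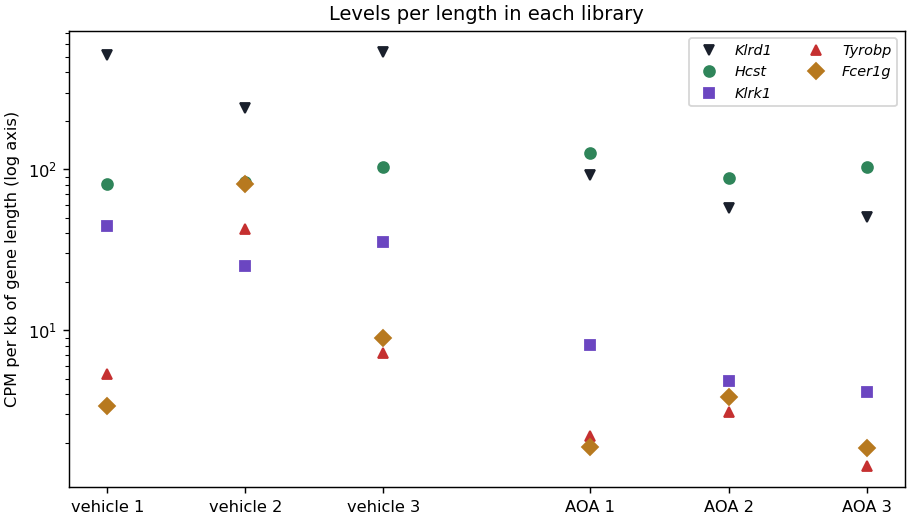
CPM per kilobase of gene length, on a log axis, of Klrd1, Hcst, Klrk1, Tyrobp and Fcer1g in each library. Hcst stays between 81.5 and 127 in all 6 libraries, Klrd1 and Klrk1 are lower in each AOA library than in any vehicle library, and Fcer1g and Tyrobp peak in vehicle replicate 2 at 81.2 and 42.8.

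Of 20 other killer lectin-like receptor genes listed, 8 had a row and 6 were tested, of which 1 was lower and 0 were higher, beside 26.8% and 26.2% of all genes tested, with a median log2 fold change of -0.61. With any 1 library left out, 2 or 3 were lower. In the fit of all 6 libraries the lower one was Klrb1f, a receptor of the NKR-P1 family, at 19.6, 10.9 and 14.2 CPM with vehicle and 3.03, 2.70 and 1.71 CPM with AOA (log2 fold change -2.58, adjusted p = 1.75e-04 by edgeR). Klra7, a receptor of the Ly49 family, was at 6.39 ± 3.13 CPM with vehicle and 5.09 ± 0.967 CPM with AOA (SD, n = 3 each) and was not called. Klra1 and Klrb1b, named like Klra7 after their values were seen, were not called without the mouse as a replicate block (log2 fold changes 1.22 and -1.87, adjusted p = 0.0640 and 0.0783 by edgeR). Both were called with it (1.35 and -2.02, adjusted p = 0.0154 and 0.00316). Reads of the Ly49 genes can be shared among near copies.

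Of 17 ligand genes listed, 5 had a row and were tested, with 3 lower and 1 higher, beside 26.8% and 26.2% of all genes tested. H2-T23, which encodes Qa-1, the ligand of CD94 with NKG2A or NKG2C, was at 305 ± 41.5 CPM with vehicle and 190 ± 24.0 CPM with AOA (SD, n = 3 each), a log2 fold change of -0.69 (adjusted p = 0.00584 by edgeR). Clec2d and Clec2i, which encode ligands of NKR-P1 receptors, had log2 fold changes of -0.97 and -0.69 (adjusted p = 0.00312 and 0.00673 by edgeR). Ulbp1, a ligand of NKG2D, rose from 31.7 ± 6.24 to 53.6 ± 2.06 CPM (SD, n = 3 each), a log2 fold change of 0.76 (adjusted p = 0.00358 by edgeR). Ulbp1 was the only NKG2D ligand of the list with a row, and the Raet1 and H60 ligands were not analysed here.

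Among 18 other receptors that use Tyrobp or Fcer1g, 4 had a row and 3 were tested, with 2 lower and 0 higher, beside 26.8% and 26.2% of all genes tested. Only 1 was lower under DESeq2 and without vehicle replicate 2 or 3 or AOA replicate 1 or 3. Fcgr3, an Fc receptor for immunoglobulin G that needs the Fcer1g product, was at 3.73, 10.2 and 3.58 CPM with vehicle and at 0.0919, 0.846 and 0.151 CPM with AOA (log2 fold change -4.02, adjusted p = 0.00166 by edgeR). Like its adapter it was highest in vehicle replicate 2. Of 21 signalling genes downstream, 20 were tested, with 8 lower and 0 higher, beside 26.8% and 26.2% of all genes tested, and a median log2 fold change of -0.19. With a log2 fold change of at least 1 required, 4 were lower, beside 14.1% of all genes tested. Those that fell most were Lat2, an adapter of the linker for activation family (-3.44, adjusted p = 7.71e-04), the kinase Lyn (-1.73, 0.00308), the adapter Sh2d1a (-1.42, 2.63e-04) and the phospholipase Plcg1 (-1.24, 0.00142), all by edgeR. Of the 2 kinases that the activation motifs recruit, named after their values were seen, Zap70 had a log2 fold change of -0.66 (adjusted p = 0.0148 by edgeR) and Syk was at 2.56 ± 2.26 CPM with vehicle and 2.81 ± 1.23 CPM with AOA (SD, n = 3 each) and was not called.

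All 3 phosphatases that inhibitory receptors recruit were called, 2 higher and 1 lower, where 53.0% of all genes tested were called in either direction. Ptpn6 (SHP-1) and Ptpn11 (SHP-2) were higher, with log2 fold changes of 0.77 and 0.47 (adjusted p = 0.00442 and 0.0457 by edgeR), and Inpp5d (SHIP-1) was lower, at -0.76 (adjusted p = 0.00690 by edgeR). The Ptpn11 libraries overlapped between the groups. Only 1 of the 3 was higher when library sizes were total counts, at a minimum of 10 CPM, and without vehicle replicate 1 or 3 or AOA replicate 2 or 3.

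Of 16 transcription factors of NK and effector CD8+ T cells, 14 were tested, with 7 lower and 2 higher, beside 26.8% and 26.2% of all genes tested, and a median log2 fold change of -0.65. Prdm1 (Blimp-1), a factor of terminal effector cells, fell by 2.31 on the log2 scale (adjusted p = 2.77e-04 by edgeR). Nfil3, which NK cells need for their development, fell by 1.83 (adjusted p = 6.70e-05 by edgeR). Bach2, which restrains effector differentiation, fell by 1.66 (adjusted p = 6.37e-04 by edgeR). Id3, a factor of memory precursors, rose by 1.91 (adjusted p = 4.50e-05 by edgeR). The factors of the sequences sought above were named after their values were seen. Runx3 was at 297, 203 and 300 CPM with vehicle and at 92.0, 122 and 113 CPM with AOA, a log2 fold change of -1.29 (adjusted p = 5.34e-04 by edgeR). Tbx21 (T-bet) had a log2 fold change of -0.74 (adjusted p = 0.00836 by edgeR), Eomes was not called (0.04, adjusted p = 0.895 by edgeR), and Zeb2 was not called (-1.42, adjusted p = 0.0766 by edgeR) unless each mouse was fitted as a replicate block (edgeR, adjusted p = 0.0162).

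Genes with the most similar pattern over the 6 libraries were found by Pearson's r of log2 CPM among 9107 genes whose mean reached 10 CPM in either group, as a description over 2 groups that differ widely. For Klrd1 they were Gnal, Zkscan14 and Tbx6, with r of 0.999, 0.999 and 0.998. For Klrg1 they were Slc33a1, Taok1 and Eci1, with r of 0.995, 0.992 and 0.990, and their log2 fold changes were only -0.45, -0.39 and -0.46. For Tyrobp they were Cdkn2b, Zfp518a and Spp1, with r of 0.995, 0.993 and 0.992. Spp1, which encodes the secreted protein osteopontin, averaged 112 CPM with vehicle and 5.20 CPM with AOA.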

How the data were processed

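RNA of CD8+ T cells was prepared as stranded messenger RNA libraries and sequenced as paired-end reads of 75 bases. The submitters' processing notes name bcl2fastq, STAR, featureCounts, DESeq2 and mm10, and the authors left multimapping reads out of the counts. As to annotation, strand setting and gene filter, these were not given in the sources used. The deposited file holds raw counts, with a gene length in bases and no other column of values. Precision from depth covers counting error only.

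The test was edgeR 4.0.16 under R 4.3.3 (filterByExpr with a minimum count of 10, TMM, robust quasi-likelihood test). The study's methods name DESeq2, which was run as an alternative (1.42.0), with limma 3.58.1, other scalings and filters, a replicate block and each library left out. Log2 CPM had a prior count of 2. Standard errors are the fold change over the root of the F statistic. Cultures with the same number came from 1 mouse per the labels. Across genes, the deviations of the 2 cultures of mice 1, 2 and 3 from their group means had r of 0.0868, 0.189 and 0.194. Cultures of different mice were not compared in this way, so these values cannot show whether those of 1 mouse were more alike. Within groups, every pair of libraries differed beyond sampling noise (chi-square per gene 10.2 to 72.4). In a draw of simulated counts, the share of false calls was above the 0.05 threshold with edgeR, limma and DESeq2, and highest with DESeq2. Few genes were set to change in that draw, far below the 53.0% called here, so its share of false calls cannot be carried over to these data.

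The members and lists were chosen with earlier results of these data known. Named genes are the 10 members, up to 4 called genes per list with the largest change and a level of 5 CPM or more in either group, and the 3 genes most like Klrg1, Klrd1 and Tyrobp. The defining markers Ncr1, Mcpt8, Kit, Lyz2, Cd14, Xcr1, Batf3, Wdfy4, Foxp3, Cd3d, Cd3e, Cd3g and Cd247 were named after their values were seen.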

Additional observations from a re-analysis of the deposited data

How the results depend on the processing

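The 9 lower calls and 0 higher calls of the receptor and adapter genes were the same under DESeq2, both other scalings, no low-count filter, a required log2 fold change of at least 1 and a replicate block for each mouse. That block changed the call of no member and gave Klrg1 -5.07, Tyrobp -2.57 and Fcer1g -2.75. A minimum of 10 CPM in 3 libraries kept 5 members, of which 4 were lower. With each library left out, 7 to 9 were lower, and over the alternatives no member changed direction. Genes called in all numbered 3081 with the log2 fold change of at least 1 and 4952 to 6796 with each library left out. The ratio of Klrk1 to Hcst without division by length was 2.99 with vehicle and 0.399 with AOA, by construction, and with annotated exon bases as length, chosen after seeing the data, it was 0.301 and 0.0401.

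For the small lists, 2 other receptor genes were lower under DESeq2, without a low-count filter and with the replicate block, and 2 to 3 with each library left out. Those higher numbered 1 under limma and with the block, and 0 to 1 with each library left out. Adapter partners lower numbered 1 under DESeq2, 0 at 10 CPM and 1 to 2 with each library left out. Signalling genes higher numbered 1 under DESeq2 and with the block, and 0 to 2 with each library left out. Phosphatases higher numbered 1 by total counts, 1 at 10 CPM and 1 to 2 with each library left out. Requiring the larger change left 0 ligands in either direction, 4 signalling genes lower and 0 phosphatases in either direction. The cause of these shifts was not tested.

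Members with few counts, Klrg1 and Klrc2 with AOA above all, are limited by depth, and the 3 cultures per group limit every call.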
